A study of Mus musculus with 9 samples.

Results

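The type I hair shaft keratins are the acidic keratins of the hair fibre, and the 9 genes Krt31, Krt32, Krt33a, Krt33b, Krt34, Krt35, Krt36, Krt39 and Krt40 were taken by symbol from the 54456 genes of the deposited count table. All 9 were present and all 9 passed the filter on low counts. They were measured in polyadenylated RNA from mouse skin in 9 libraries, taken from AA-like lesions (the labels' term, in work on alopecia of immune origin). Of these, 3 libraries came from lesions treated with IL-2+CCL22 loaded MNs (microneedles that carried the T cell growth factor IL-2 and the chemokine CCL22, called loaded here), 3 from lesions treated with empty MN (the same kind of device with no drug, called empty) and 3 from untreated lesions. The strain, age and sex of the mice, the day of sampling and whether each library had its own animal were not stated in the labels, so the p-values cover the variation among these libraries alone, which may be technical.

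A hair shaft is built from keratin filaments in which each acidic type I chain pairs with a basic type II chain, and keratin-associated proteins cross-link the filaments. The type I hair keratins switch on in sequence as cells move up from the dividing matrix of the follicle. In the human follicle, where the order is best known, Krt35 comes first in the matrix, the precortex and the young cuticle, and Krt32 belongs to the cuticle. Krt31, Krt33a, Krt33b and Krt36 follow in the cortex, Krt34 higher in the cortex, and Krt39 and Krt40 last. These genes are active in growing follicles, and in alopecia areata the follicle is attacked while it grows. The genes are described below in that order.

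The promoters of 4 neighbouring members are shown because these genes carry a like arrangement of short motifs, while Krt32 and the other 3 differed in sign or size between the loaded device and untreated lesions. The 250 bases before the start were available for 7 of the 9 members from RefSeq (build GRCm38.p6), all on the minus strand of chromosome 11, and the letters below run 5′ to 3′. Capitals mark TATAAA (the TATA box), CTTTGAA (the core of sites of the Wnt factor LEF1) and TTTATG (an A/T-rich core of the kind described for sites of the homeobox factor HOXC13 in human hair keratin promoters), searched on both strands. These motifs do not overlap each other. The motifs were chosen after the sequences were seen. The Krt32 stretch is chr11:100088270-100088519, that of Krt31 chr11:100050552-100050801, that of Krt33b chr11:100029869-100030118 and that of Krt34 chr11:100041555-100041804.
Krt32: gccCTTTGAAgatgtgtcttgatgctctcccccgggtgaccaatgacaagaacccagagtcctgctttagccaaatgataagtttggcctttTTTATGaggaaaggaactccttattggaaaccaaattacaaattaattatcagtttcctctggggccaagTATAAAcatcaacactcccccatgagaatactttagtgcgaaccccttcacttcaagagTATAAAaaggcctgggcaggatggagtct
Krt31: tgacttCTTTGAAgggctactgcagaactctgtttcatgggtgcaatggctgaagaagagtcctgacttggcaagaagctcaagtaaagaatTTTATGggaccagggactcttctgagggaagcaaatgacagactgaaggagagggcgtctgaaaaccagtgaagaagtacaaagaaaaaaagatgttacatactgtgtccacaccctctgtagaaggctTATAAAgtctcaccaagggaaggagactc
Krt33b: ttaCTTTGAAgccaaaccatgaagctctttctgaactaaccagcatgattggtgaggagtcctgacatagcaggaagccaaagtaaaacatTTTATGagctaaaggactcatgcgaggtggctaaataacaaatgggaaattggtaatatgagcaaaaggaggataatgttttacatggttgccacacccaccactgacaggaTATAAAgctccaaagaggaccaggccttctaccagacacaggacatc
Krt34: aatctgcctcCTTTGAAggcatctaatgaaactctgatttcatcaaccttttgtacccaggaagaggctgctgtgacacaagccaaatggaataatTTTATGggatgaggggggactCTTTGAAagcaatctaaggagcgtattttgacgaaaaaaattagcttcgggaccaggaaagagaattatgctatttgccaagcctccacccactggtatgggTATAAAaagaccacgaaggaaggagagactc

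In all 4 sequences CTTTGAA began 240 to 247 bases before the start, and TTTATG began 154 to 159 bases before it. A TATA box began 29 bases before the start in Krt31 and Krt32, 31 in Krt34 and 47 in Krt33b. Krt34 held a further CTTTGAA 133 bases before the start, and Krt32 a further TATAAA 88 bases before it. Of the 7 members with a sequence, 5 held CTTTGAA, 6 held TTTATG and 5 held TATAAA, against 4.46%, 10.8% and 12.4% of the 32851 mouse promoter stretches of the same length. In Krt39 and Krt40 the LEF1 and HOXC13 letters lay elsewhere or were missing, and the Krt36 stretch held none of the 3. CTTTGAA was in 0 of 7 inner root sheath keratin promoters and in 0 of 10 promoters of other type I keratins, whereas TTTATG was in 1 of 7 and in 6 of 10, and TATAAA in 7 of 7 and in 3 of 10. Of 2 type II hair keratin promoters with a sequence, 0 held CTTTGAA, 2 held TTTATG and 1 held TATAAA. A match is a description of the letters and not evidence of a bound site.

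Each library held 85962714 to 96740589 counts, and the 9 members drew 0.279% to 0.297% of all counts in the loaded libraries, 0.153% to 0.170% in the empty libraries and 0.223% to 0.226% in the untreated libraries. A single member had between 1943 counts (Krt40, empty) and 80583 counts (Krt33a, loaded) in a library. The coefficient of variation of a member within a group of 3 was 0.994% to 7.60%. CPM here are counts scaled to library sizes adjusted with TMM factors, and groups are compared as log2 fold changes with a standard error (SE) and a Benjamini-Hochberg adjusted p over all 26081 tested genes, from edgeR's quasi-likelihood test. A gene is called at an adjusted p under 0.05. The 3 comparisons share libraries, so they are not independent of each other. In skin sampled whole, fewer follicle cells and less keratin RNA per cell cannot be told apart.

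**Figure D1:**
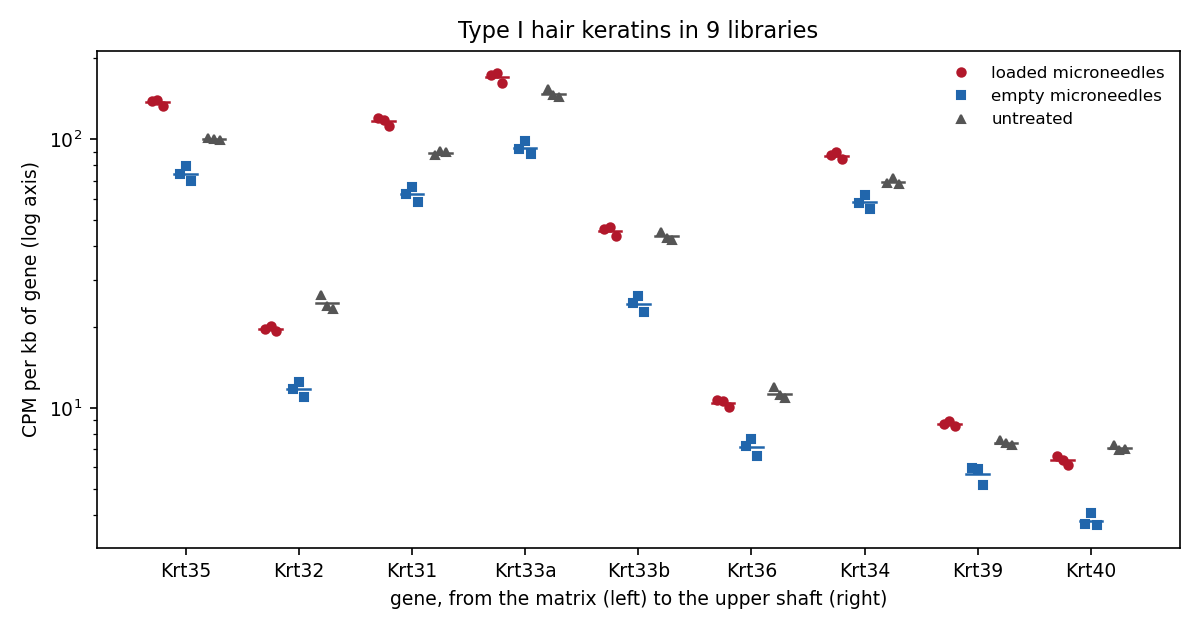
Level of each type I hair keratin in each library, in CPM per kb of gene on a log axis, with genes ordered from the matrix to the upper shaft, points for libraries (3 per group) and short lines for group means. For every gene the empty libraries lie below the loaded and the untreated ones, and Krt32, Krt36 and Krt40 are the 3 genes whose untreated libraries all lie above the loaded ones.

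Krt35, the earliest of the family and a marker of the matrix and precortex, lies at chr11:99983019-99987067 (mm39). It stood at 563, 566 and 538 CPM in the loaded libraries, 301, 322 and 282 CPM in the empty libraries and 409, 407 and 401 CPM in the untreated libraries. No library of any group reached the range of another. Krt35 was 1.37-fold higher under the loaded device than in untreated lesions (log2 fold change 0.45, SE 0.039, edgeR adjusted p = 1.91e-10), the largest such difference among the 9. It was 1.84-fold higher under the loaded than under the empty device (0.88, SE 0.039, edgeR adjusted p = 3.27e-16). With the empty device it was lower than in untreated lesions (-0.43, SE 0.039, edgeR adjusted p = 2.86e-10).

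Krt32, the cuticle keratin, lies next to Krt35 at chr11:99971674-99979052 and took another course. It stood at 145, 148 and 143 CPM in the loaded libraries, 86.5, 91.8 and 81.2 CPM in the empty libraries and 194, 177 and 172 CPM in the untreated libraries. The untreated libraries were the highest of the 9 for this gene. Krt32 was lower under the loaded device than in untreated lesions (log2 fold change -0.31, SE 0.045, edgeR adjusted p = 9.99e-06). With the empty device it fell by 1.06 on the log2 scale (SE 0.045, edgeR adjusted p = 2.62e-13), the largest fall among the 9, and it was 1.68-fold higher under the loaded than under the empty device. The predicted gene Gm11571 overlaps 5136 bases of Krt32 on the other strand. The counting strand is not given, so reads of the overlap cannot be assigned with certainty. Gm11571 had a mean of 1323 counts against 12284 for Krt32, and its log2 fold change between loaded and untreated was 0.54, opposite in sign to that of Krt32.

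Krt31, an early cortex keratin at chr11:99937472-99941377, stood at 468, 461 and 439 CPM in the loaded libraries, 245, 259 and 229 CPM in the empty libraries and 340, 353 and 350 CPM in the untreated libraries. Its groups did not overlap, and its order was that of Krt35. It was 1.31-fold higher under the loaded device than in untreated lesions (log2 fold change 0.39, SE 0.038, edgeR adjusted p = 3.38e-09) and 1.87-fold higher than with the empty device (0.90, SE 0.039, edgeR adjusted p = 3.02e-16).

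Krt33a (chr11:99902021-99907038), a cortex keratin, had the highest counts of the family, with 871, 883 and 815 CPM in the loaded libraries, 461, 496 and 441 CPM in the empty libraries and 772, 732 and 723 CPM in the untreated libraries. The loaded libraries lay above the untreated ones by a smaller margin than for Krt31, at a log2 fold change of 0.21 (SE 0.041, edgeR adjusted p = 0.000213). Its neighbour Krt33b (chr11:99914460-99920694) stood at 289, 293 and 271 CPM in the loaded libraries, 153, 163 and 141 CPM in the empty libraries and 283, 268 and 264 CPM in the untreated libraries. Loaded and untreated libraries overlapped for Krt33b, and the log2 fold change of 0.066 (SE 0.044) was not called (edgeR adjusted p = 0.254), although it was with library size as the scaling (0.20, edgeR adjusted p = 9.46e-05). Both genes were higher under the loaded than under the empty device, at 0.88 and 0.90.

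These cortex genes share sequence. Of all 50-base windows in the longest coding transcript (GENCODE vM21), 33.1% of those of Krt34, 28.1% of Krt31, 24.2% of Krt33b and 21.9% of Krt33a also occurred in another member, so the split of reads among them is uncertain. For Krt35 and Krt36 the shares were 3.95% and 0.432%, and for Krt32, Krt39 and Krt40 they were 0%.

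Krt36 (chr11:99992833-99996452), known in the human follicle from the cortex, was a low member with 38.8, 38.3 and 36.5 CPM in the loaded libraries, 26.2, 27.8 and 24.0 CPM in the empty libraries and 43.1, 40.4 and 39.3 CPM in the untreated libraries. The loaded libraries all lay just below the untreated ones, but the log2 fold change of -0.11 (SE 0.046) was not called (edgeR adjusted p = 0.0575), and it was 0.022 with library size as the scaling. The call depended on single libraries. Without untreated library 3, empty library 2 or empty library 3, in turn, it was called with -0.14, -0.11 and -0.098 (edgeR adjusted p = 0.0271, 0.0286 and 0.0416). Krt36 was higher under the loaded than under the empty device by 0.54 (SE 0.047, edgeR adjusted p = 1.42e-09), the smallest such difference among the 9.

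Krt34, the upper cortex keratin at chr11:99928173-99932380, stood at 367, 376 and 355 CPM in the loaded libraries, 245, 261 and 231 CPM in the empty libraries and 288, 302 and 288 CPM in the untreated libraries. It was 1.25-fold higher under the loaded device than in untreated lesions (log2 fold change 0.32, SE 0.038, edgeR adjusted p = 8.78e-08). With the empty device it was lower than in untreated lesions by the smallest amount of the family (-0.25, SE 0.038, edgeR adjusted p = 2.76e-06).

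Krt39 and Krt40, the last to be switched on in the human shaft, lie together at the other end of the gene stretch. Krt39 (chr11:99404940-99412164) stood at 63.2, 64.6 and 61.7 CPM in the loaded libraries, 43.0, 42.7 and 37.5 CPM in the empty libraries and 54.8, 53.5 and 52.8 CPM in the untreated libraries. It was higher under the loaded device than in untreated lesions (log2 fold change 0.23, SE 0.041, edgeR adjusted p = 4.45e-05). Krt40 (chr11:99428311-99433984) stood at 37.4, 36.3 and 34.7 CPM in the loaded libraries, 21.0, 23.0 and 20.7 CPM in the empty libraries and 41.3, 39.6 and 40.0 CPM in the untreated libraries. All 3 untreated libraries were above all 3 loaded ones, and Krt40 was called lower with the loaded device (-0.16, SE 0.041, edgeR adjusted p = 0.00247), a call that was lost with library size as the scaling (-0.023, edgeR adjusted p = 0.686). Between the empty device and untreated lesions Krt39 changed by -0.39 and Krt40 by -0.90 (SE 0.042 each).

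Over the family, 5 of 9 members were called higher and 2 lower under the loaded device than in untreated lesions, against 19.0% of all tested genes called higher and 23.3% lower (42.3% in either direction). The 5 were Krt35, Krt31, Krt33a, Krt34 and Krt39, and the 2 were Krt32 and Krt40. The median log2 fold change was 0.21 for the members and -0.014 for all tested genes. In raw separation, 5 members had all loaded libraries above all untreated ones and 3 had them below, where 24.6% and 28.1% of all tested genes did so. With library size as the scaling, which shifted the all-gene median by 0.13, 6 were called higher and 1 lower. On that scale 12460 of the 26081 tested genes were called. Of these called genes 68.1% were higher, against 44.9% of those called with TMM factors.

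Between the devices, 9 of 9 members were called higher under the loaded than under the empty device, at log2 fold changes of 0.54 to 0.90 and a median of 0.75. Scaling the counts to the partner keratins left 0 of 9 called higher and 3 lower, where 0.368% of all tested genes were higher and 86.6% lower. That scaling by construction removes what the partners share with the members, so it is no check on the 9 calls. With TMM factors, 22.9% of all tested genes were called higher and 18.5% lower (41.4% in either direction), with a median of 0.015. In the empty device against untreated lesions, 9 of 9 were called lower, at -1.06 to -0.25 and a median of -0.66. There 28.1% of all tested genes were called lower and 20.2% higher (48.3% in either direction), with a median of -0.016. With the partner keratins as the scaling, 2 members were higher and 3 lower in that comparison, against 64.4% and 3.96% of all tested genes. The members differed in the same direction between the devices and in both directions between the loaded device and untreated lesions.

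**Figure D2:**
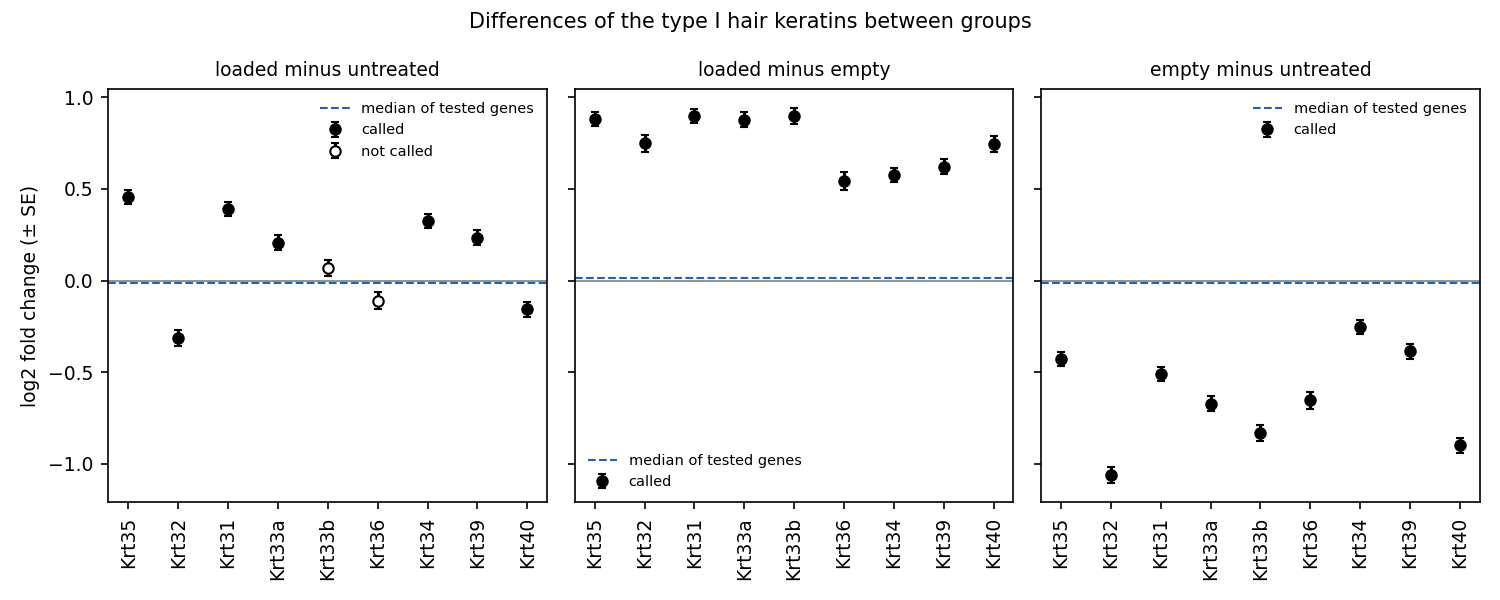
Log2 fold change of each member with its SE in the 3 comparisons (3 libraries a group, all 9 in the fit), ordered along the shaft, with filled points called, open points not called and a dashed line at the median of all tested genes. The middle panel runs from 0.54 to 0.90. With the partner keratins as the scaling, which removes what they share with the members, the range is -0.29 to 0.069. The left panel runs from -0.31 for Krt32 to 0.45 for Krt35, with Krt36 at -0.11 (0.022 with library size as the scaling).

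The order of the levels was nearly the same in the 3 groups. Per kb of gene, Krt33a led with 171 ± 7.24 CPM per kb in the loaded libraries, 92.8 ± 5.62 in the empty libraries and 148 ± 5.19 in the untreated libraries (mean ± SD, n = 3 each). Krt35, Krt31, Krt34, Krt33b, Krt32, Krt36 and Krt39 followed, and Krt40 was last with 6.37 ± 0.244, 3.80 ± 0.214 and 7.10 ± 0.155 CPM per kb in the loaded, empty and untreated libraries. Neighbours in this order did not overlap, except Krt31 and Krt34 in the empty libraries, at 58.6 to 66.3 and 54.9 to 62.0 CPM per kb. The length in the deposited table is that of the whole gene with introns. Per kb of spliced transcript the leading 6 kept their order and Krt36 moved to the last place.

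The sum of the family moved with that of its partners. The 9 type I members summed to 580 to 617 CPM per kb in the loaded libraries, 320 to 363 in the empty libraries and 492 to 509 in the untreated libraries. The 6 type II hair keratins measured (Krt81, Krt82, Krt83, Krt84, Krt86 and Krt87) summed to 649 to 687, 355 to 412 and 550 to 552 CPM per kb in the same groups. The type I to type II ratio was 0.892 to 0.897 with the loaded device, 0.882 to 0.914 with the empty device and 0.891 to 0.925 in untreated lesions, so the groups overlapped although the sums themselves did not. Of 7 type II hair keratins listed, 6 were found in the deposited counts. Krt85 was not analysed here, so the type II sum and the scaling to it do not include this gene.

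Because the partner sum tracked the family, the members were also tested relative to it, with the summed counts of the type II hair keratins as the library size. This scaling was chosen after the data were seen and asks which members changed their place within the shaft program. By construction it removes what the partners share with the members. On it, 4 members were lower and 1 higher under the loaded device than in untreated lesions. Krt32 had 3.41 to 3.55 counts per 100 type II counts in the loaded libraries and 5.01 to 5.70 in the untreated ones (log2 fold change -0.61, SE 0.065, edgeR adjusted p = 3.04e-19). Krt40 changed by -0.45 (SE 0.067), Krt36 by -0.40 (SE 0.067) and Krt33b by -0.23 (SE 0.066). Krt35 was higher, with 13.2 to 13.4 counts per 100 type II counts in the loaded libraries and 11.7 to 12.0 in the untreated ones (0.16, SE 0.067, edgeR adjusted p = 0.0318). Of all tested genes 49.5% were lower and 0.847% higher on this scale (50.4% called). The SE of every member was nearly the same on it, at 0.065 to 0.068 over the 3 comparisons. Such an SE may reflect a spread shared by many genes. The adjusted p-values on this scale may therefore overstate or understate how well the libraries of a single member agree. Krt33a had 20.3 to 20.7 counts per 100 type II counts in the loaded libraries and 21.1 to 22.7 in the untreated ones. These ranges did not overlap, yet Krt33a was not called (edgeR adjusted p = 0.291). Krt31 and Krt39 were likewise apart and not called, while Krt34 overlapped. A member not called on this scale is therefore not shown to be unchanged.

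Between the devices on the same scale, 3 members were lower and none higher, while 86.6% of all tested genes were lower and 0.368% higher (87.0% called). They were Krt36 (-0.29, SE 0.067), Krt34 (-0.26, SE 0.066) and Krt39 (-0.21, SE 0.066), at edgeR adjusted p of 3.28e-05, 0.000171 and 0.00188. Krt34 had 8.64 to 8.84 counts per 100 type II counts in the loaded libraries and 10.2 to 10.6 in the empty ones. The other 6 members, Krt32 and Krt40 among them, differed by -0.087 to 0.069 and were not called. Their loaded and empty libraries did not overlap either. Krt32 had 3.41 to 3.55 counts per 100 type II counts in the loaded libraries and 3.61 to 3.76 in the empty ones. Krt35 had 13.2 to 13.4 and 12.7 to 13.1. The share of all tested genes without overlap was not counted on this scale. In the empty device against untreated lesions, Krt34 (0.29, SE 0.066) and Krt39 (0.15, SE 0.066) were higher, and Krt32 (-0.52, SE 0.066), Krt40 (-0.36, SE 0.068) and Krt33b (-0.29, SE 0.066) lower. Of all tested genes 64.4% were higher and 3.96% lower there (68.4% called). Relative to the partner sum, Krt32, Krt40 and Krt33b were therefore called lower in both treated groups than in untreated lesions. Krt34 and Krt39 were called higher in the empty libraries than in either other group. All treated libraries also lay below all untreated ones for Krt36 and Krt33a, which were not called in both comparisons.

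**Figure D3:**
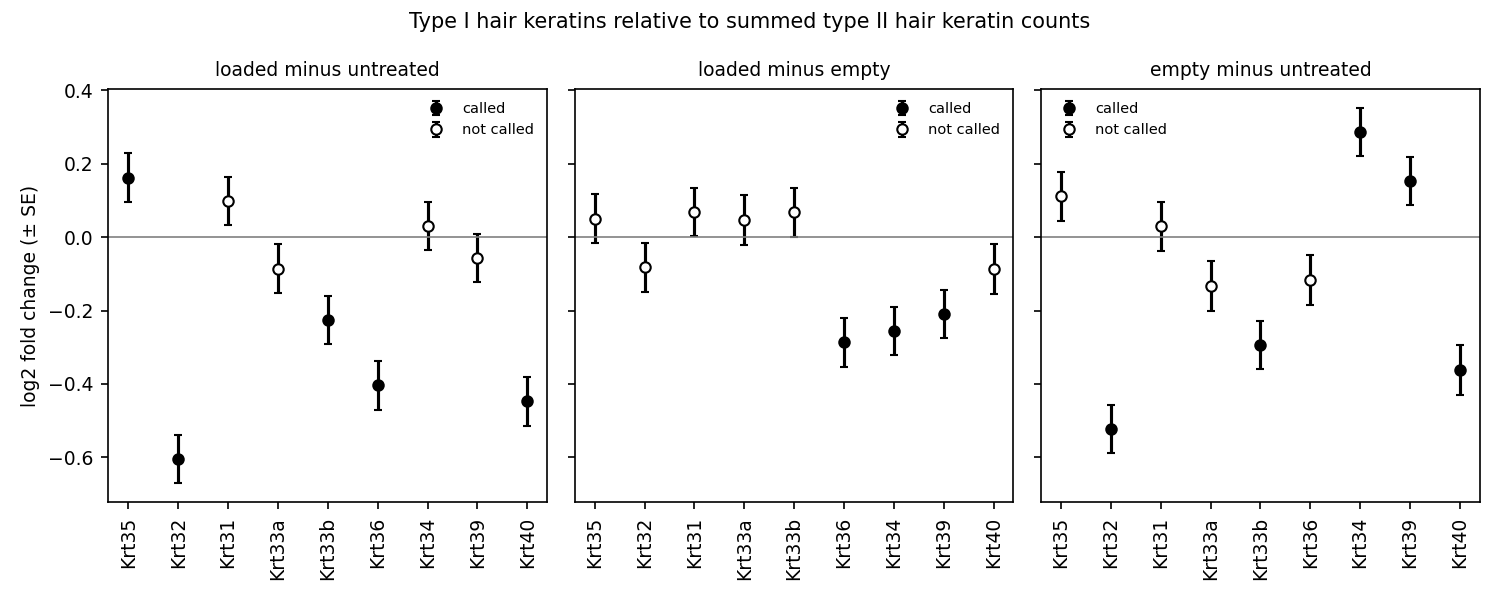
Log2 fold change of each member, with its SE, when counts are scaled to the summed type II hair keratin counts of each library, with filled points called and open points not called. Krt32 and Krt40 lie below 0 in both comparisons with untreated lesions and near 0 between the devices, where Krt36, Krt34 and Krt39 are the lowest.

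Ratios of 2 members within a library show the same shifts without any scaling, and are given as a description. Krt32 per Krt35 (CPM per kb each) was 0.141 to 0.146 with the loaded device, 0.156 to 0.158 with the empty device and 0.235 to 0.260 in untreated lesions. Krt40 per Krt39 was 0.716 to 0.754 with the loaded device, 0.622 to 0.705 with the empty device and 0.942 to 0.964 in untreated lesions. Krt33b per Krt33a was 0.267 to 0.268, 0.258 to 0.268 and 0.294 to 0.295 in the same groups. For these 3 ratios the untreated libraries stood apart, and the ranges of the treated groups met only for Krt33b per Krt33a. Krt34 per Krt35 was 0.627 to 0.639 with the loaded device, 0.779 to 0.788 with the empty device and 0.678 to 0.714 in untreated lesions. The log2 ratio of the upper members (Krt34, Krt39 and Krt40) to the low members (Krt35 and Krt32) was -0.62 ± 0.0096 with the loaded device, -0.35 ± 0.0074 with the empty device and -0.57 ± 0.040 in untreated lesions (mean ± SD, n = 3). It was higher in every empty library than in any other, while the loaded and untreated libraries overlapped. Krt34 carried most of the upper sum, with 58.4 CPM per kb in the empty libraries beside 5.68 for Krt39 and 3.80 for Krt40. Against untreated lesions Krt40 ran counter to the higher ratio, since its share of the family was lower in the empty libraries (1.11%) than in the untreated ones (1.42%). Its share in the loaded libraries (1.06%) was below that in the empty ones, in the direction of the ratio.

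**Figure D4:**
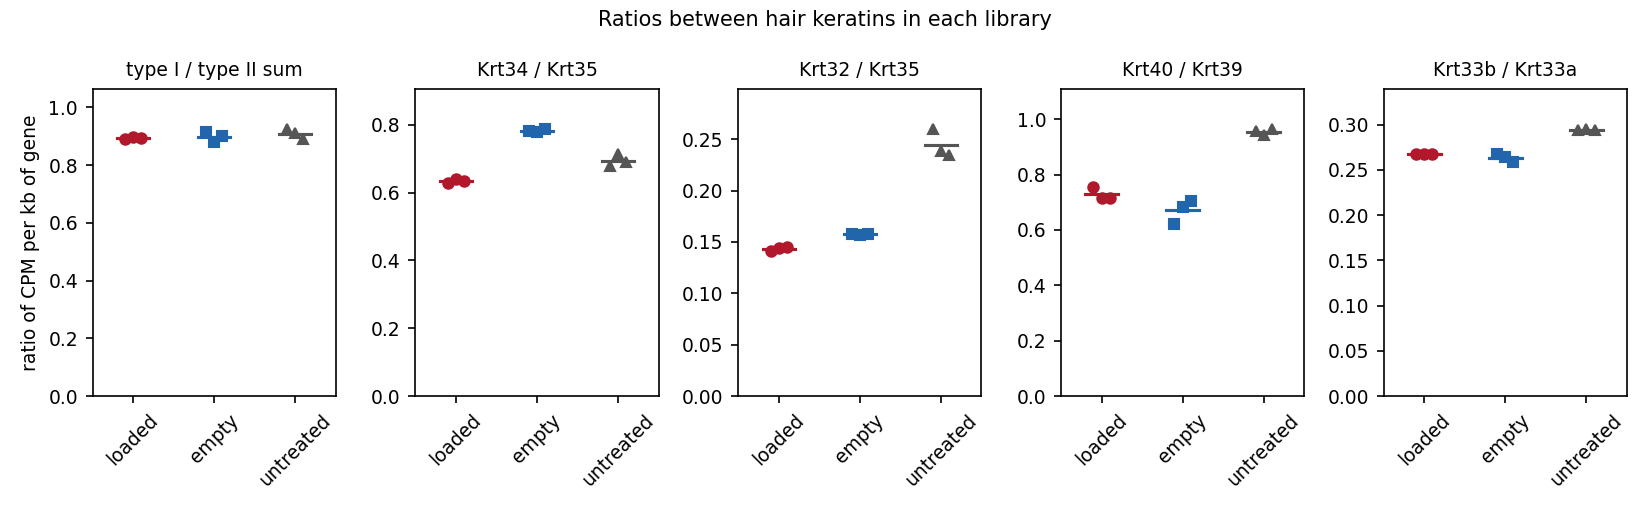
Ratios of CPM per kb within each library, with axes that start at 0, points for libraries and lines for group means. The type I to type II ratio overlaps between the groups at 0.882 to 0.925, whereas Krt34 per Krt35 is highest in the empty libraries and the ratios with Krt32, Krt40 and Krt33b on top are highest in the untreated ones.

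As a share of the summed family per kb, Krt33a made up 28.3 ± 0.269% with the loaded device, 27.2 ± 0.228% with the empty device and 29.5 ± 0.601% in untreated lesions (mean ± SD, n = 3). Krt35 made up 22.8 ± 0.120%, 21.8 ± 0.0716% and 20.0 ± 0.144%, and Krt31 made up 19.4 ± 0.207%, 18.3 ± 0.103% and 17.8 ± 0.589%. These 3 genes held most of the family in every group. Krt34 made up 14.4 ± 0.154%, 17.1 ± 0.0393% and 13.9 ± 0.428%. Krt32 made up 3.27 ± 0.0612%, 3.44 ± 0.00860% and 4.89 ± 0.239%. Krt40 was the smallest part with 1.06 ± 0.0202%, 1.11 ± 0.0274% and 1.42 ± 0.0217%.

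The members lie within 592 kb of chromosome 11, all on the minus strand, in a pair (Krt39 and Krt40) and a run of 7 (Krt33a, Krt33b, Krt34, Krt31, Krt32, Krt35 and Krt36), with 23 keratin-associated protein genes between. Close neighbours differed in their fold changes. Krt35 changed by 0.45 between the loaded device and untreated lesions, and its neighbours Krt32 and Krt36, 3966 and 5765 bases away, by -0.31 and -0.11 (Krt36 by 0.022 with library size as the scaling). Krt40 changed by -0.16, and its neighbours Krt39 and Krtap3-3 by 0.23 and 0.31. Of the 23 keratin-associated protein genes, 18 were called higher and 0 lower under the loaded device than in untreated lesions, with a median of 0.28. These genes share sequence with each other, and their single counts are uncertain. Between the devices 20 were called higher and 0 lower, with a median of 0.47 and a range of 0.019 to 1.50, wider than the 0.54 to 0.90 of the 9 keratins.

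**Figure D5:**
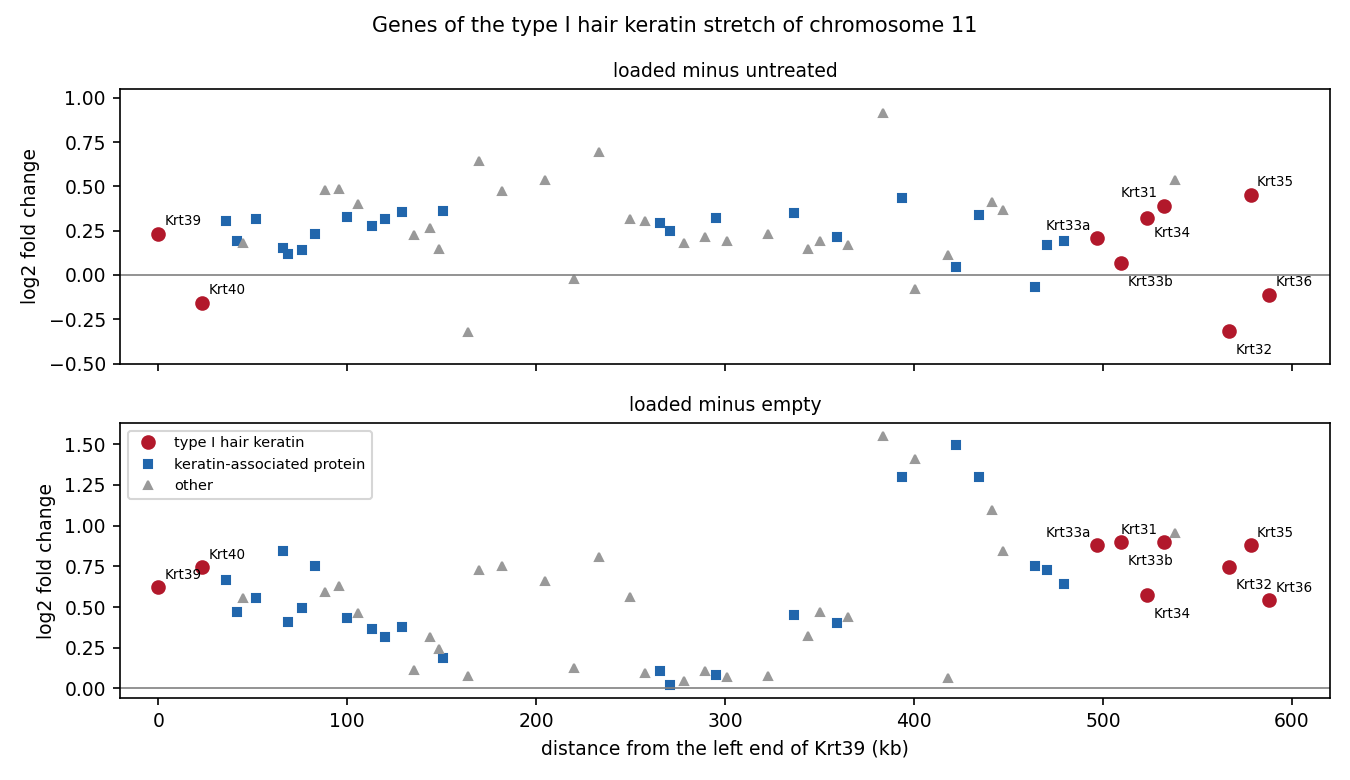
Log2 fold change of tested genes along the type I hair keratin stretch of chromosome 11, against distance in kb from the left end of Krt39, with circles for the 9 keratins, squares for keratin-associated protein genes and triangles for other genes. In the upper panel Krt32, Krt36 and Krt40 lie below 0 beside neighbours above it (Krt36 at 0.022 with library size as the scaling). In the lower panel all 9 keratins lie between 0.54 and 0.90. With the partner keratins as the scaling, which removes what they share with the members, the range is -0.29 to 0.069.

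The genes whose course over the 9 libraries was most like the mean of the members were mostly other follicle genes. Likeness was the root mean square difference of log2 CPM, each gene centred on its own mean. It was ranked over 11616 genes that averaged 5 CPM or more. The members and genes with symbols of Gm and a number or ending in Rik were left out, including such genes of the keratin stretch. The 8 closest were Krt71, Krt26, Krt73, Krt82, Krtap1-5, Bhlha9, Plod2 and Krtap16-1, at differences of 0.018 to 0.046. The members themselves lay 0.054 (Krt33a) to 0.205 (Krt32) from their own mean. Krt71, Krt26 and Krt73 are keratins of the inner root sheath, the sleeve that moulds the growing shaft, Krt82 is a cuticle keratin of type II, and Plod2 encodes a collagen lysyl hydroxylase. With library size as the scaling the same 8 genes were the closest.

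The partner keratins of type II followed the same outline. Of the 6 tested, 5 were called higher and 1 lower under the loaded device than in untreated lesions, 5 higher and none lower than with the empty device, and 6 lower with the empty device than in untreated lesions, at medians of 0.25, 0.79 and -0.51. Krt83 changed by 0.34, 0.93 and -0.60 in these comparisons (SE 0.045 each). Krt81 changed by 0.26, 0.77 and -0.51 and Krt86 by 0.24, 0.75 and -0.52 (SE 0.041 each). Krt82, the type II keratin of the human hair cuticle, was higher under the loaded device than in untreated lesions by 0.12 (SE 0.039, edgeR adjusted p = 0.0125), where the cuticle keratin of type I, Krt32, was lower by 0.31. The partner called lower was Krt84, known in humans from the tongue, at -0.26.

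Other lists of follicle genes were read alongside. Of 8 inner root sheath keratins, 7 were called higher and 0 lower under the loaded device than in untreated lesions, 8 higher than with the empty device, and 8 lower with the empty device than in untreated lesions, among them Krt74 at 0.62, 0.84 and -0.22 and Krt25 at 0.32, 0.82 and -0.50. Of 14 regulators linked to hair keratin expression, 10 were higher and 1 lower under the loaded device than in untreated lesions, 10 higher and 2 lower than with the empty device, and 3 higher and 8 lower with the empty device than in untreated lesions. Hoxc13, a homeobox factor of the shaft, changed by 0.36, 0.75 and -0.39 (SE 0.040 each). Lef1, a Wnt factor of the matrix, changed by 0.64, 0.89 and -0.25, Msx2, a homeobox factor of the matrix, by 0.43, 0.79 and -0.37, and Foxn1, the factor lacking in nude mice, by 0.34, 0.55 and -0.20. Of 15 genes of shaft assembly and cross-linking, 8 were higher and 4 lower in the first of these comparisons, 9 higher and 6 lower in the next, and 4 higher and 10 lower in the last. S100a3, a calcium-binding protein of the hair cuticle, changed by 0.28, 0.73 and -0.44, Padi3, an enzyme that turns arginine into citrulline in follicle proteins, by 0.43, 0.71 and -0.28, Tchh, which encodes trichohyalin, by 0.26, 0.80 and -0.53, and the transglutaminase gene Tgm5 by -0.92, -0.72 and -0.20.

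The type I keratins outside the hair shaft were mixed. Of 15 tested, 0 were called higher and 9 lower under the loaded device than in untreated lesions, 3 higher and 6 lower than with the empty device, and 2 higher and 9 lower with the empty device than in untreated lesions. Krt10, the keratin of differentiated epidermis, changed by -0.39, -0.87 and 0.49, and Krt16, an injury keratin, by -1.86, -0.85 and -1.01. Krt13, of internal epithelia, changed by -0.85 and -0.95 in the comparisons of the loaded device with untreated lesions and with the empty device. It was near the floor, with group means of 0.80 to 1.55 CPM. Krt18, of simple epithelia, was a low gene with group means of 4.06 to 7.03 CPM. It changed by 0.79 between the devices and -0.74 with the empty device against untreated lesions. It was called in both, near the medians of the 9 hair keratins (0.75 and -0.66). Between the loaded device and untreated lesions it changed by 0.047 (SE 0.070) and was not called, where the median of the hair keratins was 0.21. Krt24 (0.12, 0.58 and -0.46) and the follicle keratin Krt17 (-0.022, 0.22 and -0.25) were likewise called higher between the devices and lower with the empty device than in untreated lesions. Krt24 was also low, with group means of 1.72 to 2.57 CPM. Of 13 cell division genes, 13 were higher under the loaded than under the empty device and 13 lower with the empty device than in untreated lesions, while 3 were higher and 5 lower under the loaded device than in untreated lesions. Their summed level was 770 to 795 CPM in the loaded libraries, 477 to 500 CPM in the empty libraries and 845 to 896 CPM in the untreated libraries. It was highest in the untreated libraries, as were Krt32, Krt36 and Krt40. With library size as the scaling, however, Krt36 and Krt40 differed between the loaded device and untreated lesions by 0.022 and -0.023, and neither was called.

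Markers of other skin tissues moved with the groups as well. None of their listed genes was at 0 in any group. Of 15 tested suprabasal epidermis genes, 15 were lower under the loaded than under the empty device (summed 31600 to 33789 CPM in the loaded libraries, 54648 to 55938 CPM in the empty libraries and 42326 to 43334 CPM in the untreated libraries). Of 18 skeletal muscle genes, 15 were lower and 2 higher between the devices (summed 11375 to 12035, 15994 to 18843 and 12490 to 12823 CPM in the same groups). Of 12 melanocyte genes 11 were higher (616 to 675, 315 to 348 and 598 to 625 CPM), and of 12 adipocyte genes 11 were higher and 1 lower (2082 to 2179, 1917 to 2190 and 1972 to 2042 CPM). Of 17 leukocyte genes 14 were lower and 0 higher (525 to 575, 819 to 848 and 787 to 829 CPM), and of 14 injury genes of epidermis 12 were lower and 0 higher (899 to 947, 1553 to 1738 and 2911 to 3328 CPM). Of 12 sebaceous genes 5 were higher and 6 lower (1202 to 1219, 1217 to 1245 and 1234 to 1247 CPM). Single genes weigh heavily in such sums. Car3, the adipocyte gene called lower, averaged 1406 CPM in the empty libraries, where the mean adipocyte sum was 2052 CPM. Cd74 averaged 385 CPM there, beside a mean leukocyte sum of 831 CPM. Against untreated lesions, the loaded device had 11 lower and 1 higher of the suprabasal genes, 11 lower and 2 higher of the muscle genes, 17 lower of the leukocyte genes and 14 lower of the injury genes. In the same comparison 7 adipocyte genes were higher and 0 lower (median 0.32), 5 melanocyte genes higher and 4 lower, and 3 sebaceous genes higher and 7 lower. With the empty device against untreated lesions, where all 9 keratins were lower, 0 melanocyte genes were higher and 11 lower, 3 adipocyte genes higher and 9 lower, 2 leukocyte genes higher and 13 lower, and 3 injury genes higher and 9 lower. In that comparison 15 muscle genes were higher and 2 lower, 10 suprabasal genes higher and 5 lower, and 4 sebaceous genes higher and 4 lower. Mitochondrial transcripts held 3.78% to 3.90% of counts with the loaded device, 3.31% to 3.42% with the empty device and 4.56% to 4.72% in untreated lesions. The part of tissue makeup and RNA quality in the keratin differences was not tested.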

How the data were processed

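RNA of mouse skin (Qiagen miRNeasy) went into poly(A) libraries (IDT xGen Broad-Range), per the labels' protocols. HISAT2 (mm39) and featureCounts made the counts, per the submitters' processing notes. Their versions, the annotation and the strand setting were not stated there. The deposited values are raw gene counts, per the file headers. Gene length equalled the whole span for 99.9% of the 54456 genes, so intron reads are included.

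Groups came from the treatment labels. Genes were kept with filterByExpr (minimum count 10, minimum total 15), which left 26081 genes with 99.96% of the counts, scaled with TMM factors and tested with edgeR 4.0.16 (R 4.3.3, robust quasi-likelihood, all 9 libraries, 1 coefficient per group). SE values come from the F statistic. The steps were tested on simulated counts. Alternatives were 4 other scalings, 2 other filters, the DESeq2 1.42.0 Wald test, limma-voom (limma 3.58.1), a fit with the replicate number as a block, one restricted to the pair of groups, one that was not robust, leaving out each library and, added later, scaling to type II hair keratins and spliced lengths. Members, lists and motifs were chosen with earlier results of these data known. All 9 members are named, with up to 4 genes of the lists of type II, inner root sheath and other type I keratins, regulators and shaft assembly by smallest p between the devices, the 8 genes most like the members, and neighbours. Krt17, Krt24, Krt84 and Krt85 were named outside this rule, the first 3 after their values were seen. Promoter letters are RefSeq's (GRCm38.p6), matched by symbol for 7 of 9 members.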

Additional observations from a re-analysis of the deposited data

How the results depend on the processing

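Of 297 values (27 fold changes of members under 11 other settings), 292 kept their direction and their side of the threshold, and 240 of 243 did on leaving out each library. With library size alone, 1 member was called lower between the loaded device and untreated lesions in place of 2, since Krt40 lost its call (-0.023), and Krt36 turned to 0.022. That scaling also moved the share of higher calls among all called genes to 68.1%, against 44.9%, for the loaded device against untreated lesions and to 57.9%, against 41.7%, for the empty device. Upper-quartile scaling moved it to 44.4%, against 55.3%, between the devices and to 53.0%, against 41.7%, for the empty device against untreated lesions.

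Scaled to the type II hair keratins, which by construction removes what the partners share, the members called higher and lower came to 1 and 4 for the loaded device set against untreated lesions, 0 and 3 between the devices, and 2 and 3 for the empty device against untreated lesions. Of all tested genes 0.847% and 49.5%, 0.368% and 86.6%, and 64.4% and 3.96% were called higher and lower in these comparisons. On that scale the direction turned in the first comparison for Krt33a (-0.086), Krt33b (-0.23) and Krt39 (-0.057). It turned between the devices for Krt32 (-0.083), Krt40 (-0.087), Krt36 (-0.29), Krt34 (-0.26) and Krt39 (-0.21). In the empty device against untreated lesions it turned for Krt31 (0.030), Krt35 (0.11), Krt34 (0.29) and Krt39 (0.15).

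Libraries of different groups with the same replicate number did not deviate together (correlations of -0.13 to 0.10 over 9 pairs, and 2 of 9 libraries closest to their own number). With the replicate number as a block, 5, 9 and 0 members were called higher and 3, 0 and 9 lower for the loaded device against untreated lesions, between the devices and for the empty device against untreated lesions. Krt36 was then called lower in the first comparison (-0.11, edgeR adjusted p = 0.0244), and so it was with only those 2 groups in the fit (-0.10, edgeR adjusted p = 0.0330). On leaving out each library, 5 members stayed called higher between the loaded device and untreated lesions and 2 to 3 lower, with 9 higher between the devices and 9 lower with the empty device in every case. Depth did not limit the members, each of which had at least 1943 counts in every library. Shares per kb depend on the length used.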
